A study of Mus musculus with 4 samples.

Results

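G2 and M phase genes are the genes whose transcripts accumulate as a cell prepares for mitosis and passes through it. A list of 52 of them was followed here in single cortical cells of mouse embryos. All 52 members were present among the 36528 gene rows of the count tables, and 4 libraries were compared, 2 from COP1 KO mice and 2 from HET mice, all C57BL/6 at E16.5, late in cortical neurogenesis. COP1 is the part of a ubiquitin ligase that recognizes the proteins to be degraded, among them JUN and ETS factors. The labels leave HET undefined, and in their titles the COP1 KO libraries are called CKO with no driver given, so the cells that lost the gene cannot be named. Both groups are described only by these words, with no litter, batch or replicate number, and p-values measure the spread between 2 libraries per genotype.

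Entry into mitosis is driven by the kinase CDK1 with cyclins A and B, helped by the kinases PLK1 and Aurora A. The chromosomes are then condensed, attached to the spindle through kinetochores, and held by the spindle checkpoint until all are attached. They are parted once the anaphase-promoting complex (APC/C) is active, which also marks cyclin B for destruction. In the cortex at this age the dividing cells are radial glia, which line the ventricle, the intermediate progenitors they produce, progenitors of the ganglionic eminences below the cortex, and progenitors that express Olig1 and Olig2 and go on to the oligodendrocyte lineage. The members were grouped by role into cyclins, mitotic kinases and kinase subunits (10), partners of the APC/C and other regulators (4), centromere and kinetochore proteins (7), the spindle checkpoint (4), the chromosomal passenger complex (4), kinesins (7), spindle assembly proteins (8), cytokinesis (3), and proteins of chromosomes and chromatin (5).

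The libraries held 28049007 and 28988265 counts in COP1 KO and 28327090 and 28071382 in HET. After filtering, 5195 and 4729 COP1 KO cells and 4545 and 4314 HET cells were kept, with medians of 4505 and 5134 counts per cell in COP1 KO and 5171 and 5476 in HET. The libraries of every pair shared between 22 and 40 cell barcodes, 181 barcodes in all. Hemoglobin genes took 0.307% and 0.301% of counts in COP1 KO and 0.25% and 0.109% in HET. In radial-glia-like cells alone, COP1 KO replicate 1 stood apart by erythroid transcripts: the marker genes summed to 1620 CPM (counts scaled to a total of 1000000), against 180 CPM in COP1 KO replicate 2 and 176 and 150 CPM in HET. The targeted gene is listed under its older symbol Rfwd2 (chr1:159232156-159354872, GRCm38.p6). It had 31.2 and 29.6 CPM in whole COP1 KO libraries, against 31.8 and 38.8 CPM in HET, which did not pass (log2 difference -0.22, SE 0.112, edgeR adjusted p = 0.531). Reads come from the 3′ end of transcripts, and which exons were removed is not given in the sources used here, so this level checks nothing about the genotype.

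Cells were clustered without the members and without other cell cycle genes, and 4 progenitor classes were named from marker genes. Radial-glia-like cells numbered 384 and 333 in COP1 KO and 282 and 298 in HET. Intermediate-progenitor-like cells numbered 382 and 301 in COP1 KO and 320 and 329 in HET, and ganglionic-eminence-progenitor-like cells 246 and 230 in COP1 KO and 141 and 203 in HET. Oligodendrocyte-precursor-like cells numbered 116 and 139 in COP1 KO, against 35 and 38 in HET. In this last class, Olig1 had a count in 94.8% and 94.2% of COP1 KO cells and in 85.7% and 86.8% of HET cells. Fabp7, a radial glia marker, had one in 97.4% and 98.6% of COP1 KO cells and in 94.3% and 97.4% of HET cells. The class took the name of its best-scoring marker list (score 2.61), and the radial glia list came second (1.74). Radial glia markers summed to 22292 and 25126 CPM there in COP1 KO and to 25133 and 25583 CPM in HET. In radial-glia-like cells the sums were 27150 and 25468 CPM in COP1 KO and 26064 and 27242 CPM in HET. Pdgfra, a receptor of committed precursors, was detected in 37.1% and 44.6% of the COP1 KO cells and in 51.4% and 47.4% of the HET cells. At this depth a cell without a Pdgfra count cannot be told from one that does not express the gene. A cluster of 427 cells that scored highest for ganglionic eminence markers was kept out of the ganglionic-eminence-progenitor-like class by a rule set after the data were seen. It held 2.39% and 2.71% of COP1 KO cells and 2% and 1.95% of HET cells.

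In every library the 52 members summed to more in the progenitor classes than in neurons. Their counts summed to 386 and 420 CPM in excitatory-neuron-like cells of COP1 KO and to 408 and 400 CPM in those of HET. In ganglionic-eminence-progenitor-like cells, the highest class, the sum was 18568 and 21171 CPM in COP1 KO, against 20162 and 21364 CPM in HET. Radial-glia-like cells not called dividing held 643 and 634 CPM in COP1 KO and 722 and 735 CPM in HET. The members were not confined to progenitors: microglia-like cells held 2156 and 1132 CPM in COP1 KO and 4532 and 5293 CPM in HET. Endothelial-like cells held 3226 and 1620 CPM in COP1 KO and 3564 and 2572 CPM in HET. Both rest on 9 to 28 cells per library. Of the 52 members, 30 had a level in excitatory-neuron-like cells below 1% of that in dividing radial-glia-like cells, where dividing means at least 5 counts over a list of 54 other G2 and M phase genes that holds no member. Bub3, a checkpoint protein with a role in splicing as well, was the single member above 10%: its level in these neurons was 186 CPM, against 513 CPM in dividing radial-glia-like cells, or 36.2%. Cks1b, a kinase subunit that also serves in protein degradation, came next with 9.86%.

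Among dividing cells, the members were highest in ganglionic eminence and intermediate progenitors. As means over the 4 libraries, 33 members were highest in ganglionic-eminence-progenitor-like, 18 in intermediate-progenitor-like and 1, the microtubule protein gene Ckap2, in radial-glia-like cells. The members' level in dividing ganglionic-eminence-progenitor-like cells was a median of 1.45 times that in radial-glia-like cells, and 2.08 times for Top2a, the topoisomerase that untangles chromosomes, and for Cenpe, a kinetochore motor. The shugoshin gene Sgol2a, which protects the cohesion of centromeres, had the widest such ratio at 2.43. In oligodendrocyte-precursor-like cells 51 of 52 members were lowest, with a median ratio of 0.774 to radial-glia-like cells. Gtse1, a regulator of microtubules and of p53, was the exception, at 31.1 CPM against 26.0 CPM. These are descriptions across classes of the same libraries, and no test was made of them. The call was made at each cell's own depth, so a shallow cell passes it only at a higher CPM. Median counts per cell of the ganglionic-eminence-progenitor-like class were 3635 and 4305 in COP1 KO and 4516 and 4445 in HET. In the radial-glia-like class they were 5298 and 5923 in COP1 KO and 5903 and 6759 in HET. The part of depth in this order was not tested.

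The distance to the last place in that order was wider in HET than in COP1 KO, given here as values with no test. In dividing oligodendrocyte-precursor-like cells the members summed to 14366 and 16780 CPM in COP1 KO, against 14526 and 15985 CPM in dividing radial-glia-like cells of the same libraries, so they were lower in replicate 1 and higher in replicate 2. They were lower with the call of 2 counts in both COP1 KO libraries, at 11182 and 12174 CPM against 11875 and 13233 CPM. In HET the oligodendrocyte-precursor-like sums were 9186 and 10242 CPM, below the 17634 and 16668 CPM of the radial-glia-like cells. The HET sums rest on 12 and 17 cells, against 68 and 73 cells in COP1 KO. All counts of these cells came to 162421 and 186970 in HET and to 555603 and 642061 in COP1 KO. A deeper cell passes the call at a lower CPM, and the part of depth was not tested.

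**Figure D1:**
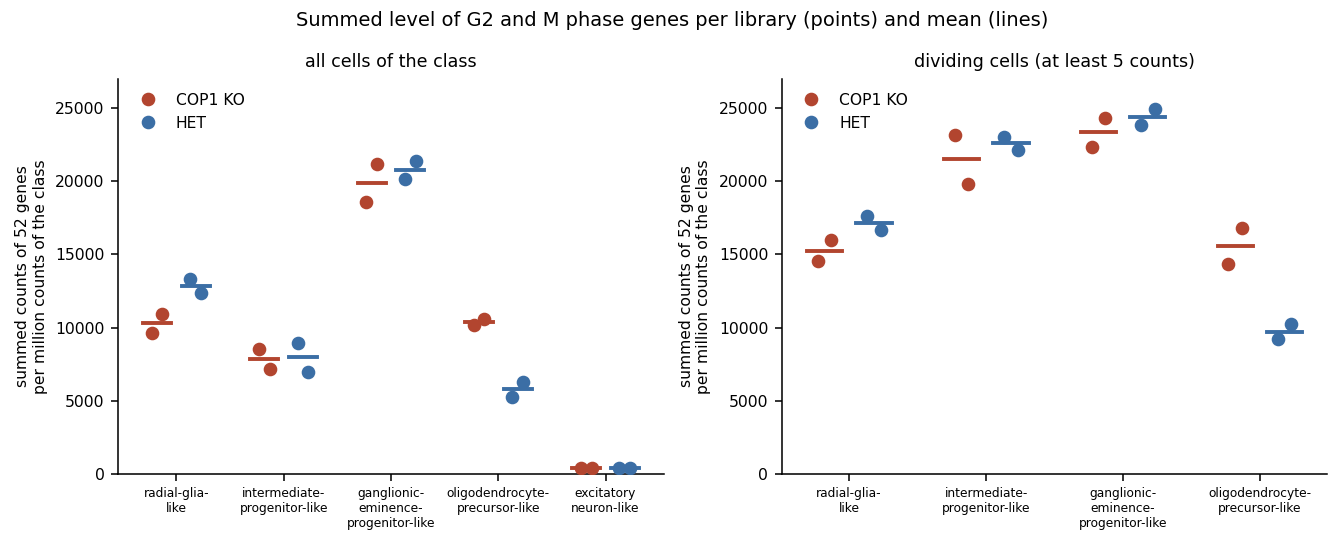
CPM summed over the 52 members, for all cells of a class (left) and for its dividing cells with at least 5 counts of other G2 and M phase genes (right); points are libraries and lines are means. COP1 KO lay below HET in radial-glia-like cells (9653 and 10920 against 13347 and 12369 CPM) and above HET in oligodendrocyte-precursor-like cells (10152 and 10577 against 5286 and 6254 CPM).

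In whole libraries the members did not change past the threshold. They summed to 2759 and 2852 CPM in COP1 KO and to 2516 and 2773 CPM in HET, and 44 of 52 were higher in COP1 KO, with a median log2 change of 0.13. None of the 52 passed edgeR's quasi-likelihood test with Benjamini-Hochberg adjustment over all genes, where 0.0118% of 16977 genes passed in either direction. At an unadjusted p below 0.05 there were 14 of 52 members, against 10.5% of all genes tested, and DESeq2 called none. With 1 library left out the members' median in whole-library sums ran from 0.06 to 0.2. In such sums, more cells of a type and more RNA per cell cannot be told apart.

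The portion of these transcripts held by each class is given as values with no test. Radial-glia-like cells held 30.0% and 32.8% of all member counts in COP1 KO, against 38.3% and 38.7% in HET. Oligodendrocyte-precursor-like cells held 11.2% and 13.9% in COP1 KO, against 2.27% and 2.71% in HET. By cell number, the oligodendrocyte-precursor-like class made up 2.23% and 2.94% of COP1 KO cells and 0.77% and 0.881% of HET cells. Radial-glia-like cells were 7.39% and 7.04% of COP1 KO cells and 6.20% and 6.91% of HET cells, so their smaller portion of the member counts was not matched by a smaller portion of cells. Ganglionic-eminence-progenitor-like cells held 24.7% and 28.3% in COP1 KO and 20.2% and 27.8% in HET, where the groups overlapped.

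**Figure D2:**
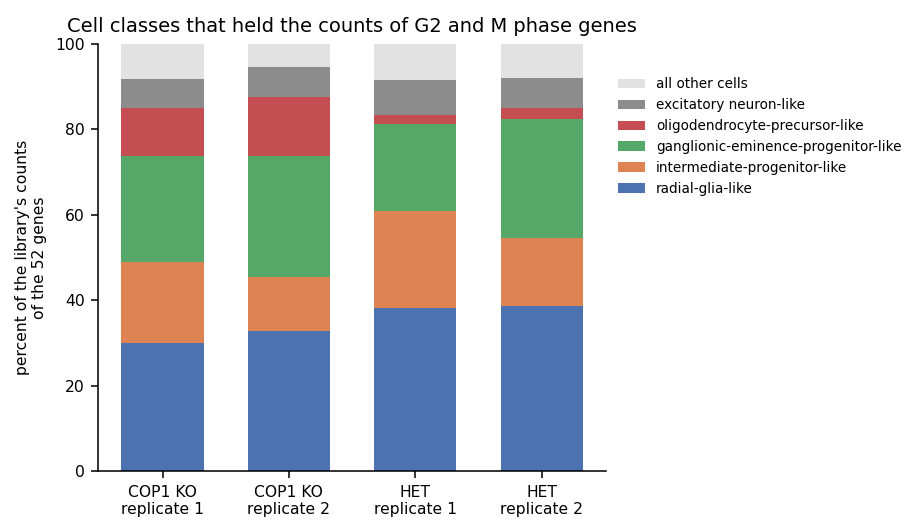
Percent of each library's counts of the 52 members that came from each cell class, for the 4 libraries. The oligodendrocyte-precursor-like portion was 11.2% and 13.9% in COP1 KO, against 2.27% and 2.71% in HET.

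In radial-glia-like cells the members were lower in COP1 KO almost without exception. Of 52 members, 51 had a lower level, with a median log2 change of -0.26, while over all 11623 genes tested the median was 0.00 and 50.1% were lower. In 43 of 52 members both COP1 KO libraries lay below both HET libraries, which was the case for 22.5% of all genes tested. The members summed to 9653 and 10920 CPM in COP1 KO, against 13347 and 12369 CPM in HET. Of the 52, 4 fell past the threshold in edgeR's quasi-likelihood test with Benjamini-Hochberg adjustment, while 0.878% of all genes tested were called lower. The 4 were Hmgb2, Cks2, Aurkb and Top2a. DESeq2 called 1 of them, Hmgb2.

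Hmgb2 encodes a DNA-bending chromatin protein that is abundant in cycling progenitors. It had 328 and 340 CPM in COP1 KO radial-glia-like cells, against 569 and 564 CPM in HET. The libraries of a genotype lay close together and the groups were far apart, and the difference passed (log2 change -0.76, SE 0.0759, edgeR adjusted p = 0.000885). Hmgb2 was called in each of the 10 alternative analyses, with log2 changes from -0.81 to -0.74.

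Cks2 encodes a small subunit of CDK1. It had 145 and 156 CPM in COP1 KO and 231 and 197 CPM in HET (log2 change -0.51, SE 0.1, edgeR adjusted p = 0.027). Both COP1 KO libraries were below both HET libraries. Top2a had 472 and 458 CPM in COP1 KO and 612 and 588 CPM in HET (log2 change -0.37, SE 0.0764, edgeR adjusted p = 0.0347). The groups again did not overlap. Aurkb, the kinase of the chromosomal passenger complex that corrects faulty spindle attachments, had 126 and 125 CPM in COP1 KO and 179 and 161 CPM in HET (log2 change -0.44, SE 0.093, edgeR adjusted p = 0.0386). Without HET replicate 1 the calls of Cks2, Top2a and Aurkb were lost, and without HET replicate 2 those of Top2a and Aurkb were. With 1 library left out, log2 changes ran from -0.62 to -0.38 for Cks2, -0.4 to -0.34 for Top2a and -0.51 to -0.36 for Aurkb. The members' median ran from -0.33 to -0.19. COP1 KO replicate 1, whose radial-glia-like cells held the most erythroid transcripts, was among the libraries left out.

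Promoters of the members share sequence features, which were read from RefSeq windows of GRCm38.p6 that run from 250 bases before to 50 bases after each start. Windows were matched for 42 of 52 members. The CHR element (TTTGAA, searched on both strands) is bound by the DREAM and MuvB complexes that time G2 and M transcription, and the CCAAT box (CCAAT, searched on both strands) is bound by NF-Y. A CHR match stood in the windows of 32 of 42 members (76.2%), against 20.2% of 27025 genes. A CCAAT match stood in 34 of 42 (81.0%), against 41.1% of all genes. Both stood in 1 window for 28 members (66.7%), against 7.97% of all genes. A match is a run of letters and was not tested as a binding site.

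The windows of called members that had one, and of Ube2c, are given to show where these matches lie, 5′ to 3′ along the gene, with CHR and CCAAT matches on either strand in capitals. Positions are those of a match's first base, counted from 1 at the start of transcription, with negative numbers before it. Hmgb2 (chr8:57511593-57511892, plus strand) held 2 CHR matches, at -218 and -30, and 4 CCAAT matches. Top2a (chr11:99024140-99024439, minus strand) held 2 CHR matches, at -179 and -23, and 6 CCAAT matches. Cenpf (chr1:189688037-189688336, minus strand) held 1 CHR match, at 3, and 2 CCAAT matches. Ube2c (chr2:164769679-164769978, plus strand) held 1 CHR match, at -29, and 6 CCAAT matches, of which 2 on opposite strands overlap. Cks2 (chr13:51644982-51645281, plus strand) held 4 CCAAT matches and no CHR match in this window.
Hmgb2: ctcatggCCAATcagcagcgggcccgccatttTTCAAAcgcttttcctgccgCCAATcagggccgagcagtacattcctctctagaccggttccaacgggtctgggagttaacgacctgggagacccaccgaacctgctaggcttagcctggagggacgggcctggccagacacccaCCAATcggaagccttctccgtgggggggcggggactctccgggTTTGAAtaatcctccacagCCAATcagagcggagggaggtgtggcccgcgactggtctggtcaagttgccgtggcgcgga
Top2a: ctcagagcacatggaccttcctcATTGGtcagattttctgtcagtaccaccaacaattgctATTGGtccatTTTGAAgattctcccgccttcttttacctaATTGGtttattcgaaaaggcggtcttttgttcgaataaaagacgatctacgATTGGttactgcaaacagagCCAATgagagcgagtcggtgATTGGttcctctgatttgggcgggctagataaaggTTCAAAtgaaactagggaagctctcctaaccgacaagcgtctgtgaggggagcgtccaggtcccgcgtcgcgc
Cenpf: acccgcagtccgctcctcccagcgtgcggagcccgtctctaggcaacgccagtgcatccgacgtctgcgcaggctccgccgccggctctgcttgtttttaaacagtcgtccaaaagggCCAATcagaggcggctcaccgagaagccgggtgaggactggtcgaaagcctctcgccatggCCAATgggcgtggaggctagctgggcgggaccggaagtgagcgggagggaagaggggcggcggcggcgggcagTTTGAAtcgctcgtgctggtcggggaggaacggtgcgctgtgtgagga
Ube2c: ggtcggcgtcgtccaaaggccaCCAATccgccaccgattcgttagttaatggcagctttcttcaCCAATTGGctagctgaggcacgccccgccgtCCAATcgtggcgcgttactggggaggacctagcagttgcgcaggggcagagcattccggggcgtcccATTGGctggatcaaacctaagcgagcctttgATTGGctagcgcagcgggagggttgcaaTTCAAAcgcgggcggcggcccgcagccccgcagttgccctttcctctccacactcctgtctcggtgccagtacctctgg
Cks2: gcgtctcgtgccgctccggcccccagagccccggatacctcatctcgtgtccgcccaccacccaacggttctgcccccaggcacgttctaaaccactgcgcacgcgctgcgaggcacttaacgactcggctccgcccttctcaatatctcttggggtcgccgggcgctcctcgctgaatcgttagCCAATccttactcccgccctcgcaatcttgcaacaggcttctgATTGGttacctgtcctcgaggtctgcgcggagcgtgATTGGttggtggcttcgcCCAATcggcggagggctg

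Hmgb2 and Cks2 both fell in radial-glia-like cells, the first with 2 CHR matches and the second with none. Top2a, with 2, fell there too, while Mki67, with 2 in its window, did not pass. These are picked from 42 members with windows, Aurkb had no window, and a relation of matches to change was not tested.

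The cyclins and kinases that drive mitosis gave lower values that did not pass. Cdk1 had 304 and 356 CPM in COP1 KO and 452 and 377 CPM in HET (log2 change -0.33, SE 0.109, edgeR adjusted p = 0.193). Ccnb1, cyclin B1, had 252 and 330 CPM in COP1 KO and 421 and 362 CPM in HET (log2 change -0.42, SE 0.126, edgeR adjusted p = 0.139). All 10 members of this role were lower, from -0.54 for Aurka, the Aurora A kinase gene (adjusted p = 0.0781), to -0.09 for Ccnb2, cyclin B2. Ube2c, the ubiquitin-conjugating enzyme of the APC/C, had 536 and 612 CPM in COP1 KO and 741 and 653 CPM in HET (log2 change -0.28, SE 0.0962, edgeR adjusted p = 0.208). Cdc20, an activator of the APC/C, had a log2 change of -0.37 (adjusted p = 0.103).

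Among kinetochore proteins the 7 members were lower by -0.26 to -0.12. Cenpf, a large kinetochore protein, had 411 and 403 CPM in COP1 KO and 517 and 460 CPM in HET (log2 change -0.26, SE 0.0844, edgeR adjusted p = 0.176). Mki67, the Ki-67 protein that coats mitotic chromosomes, had 143 and 125 CPM in COP1 KO and 156 and 137 CPM in HET, and the groups overlapped (log2 change -0.13, SE 0.107, edgeR adjusted p = 0.652). The checkpoint kinase gene Ttk was the single member with a higher value, at 59.9 and 52.7 CPM in COP1 KO against 52.9 and 55 CPM in HET, and it did not pass (log2 change 0.06). The 7 kinesins were all lower, from -0.42 for Kif4 to -0.07 for Kif20b, and none passed.

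**Figure D3:**
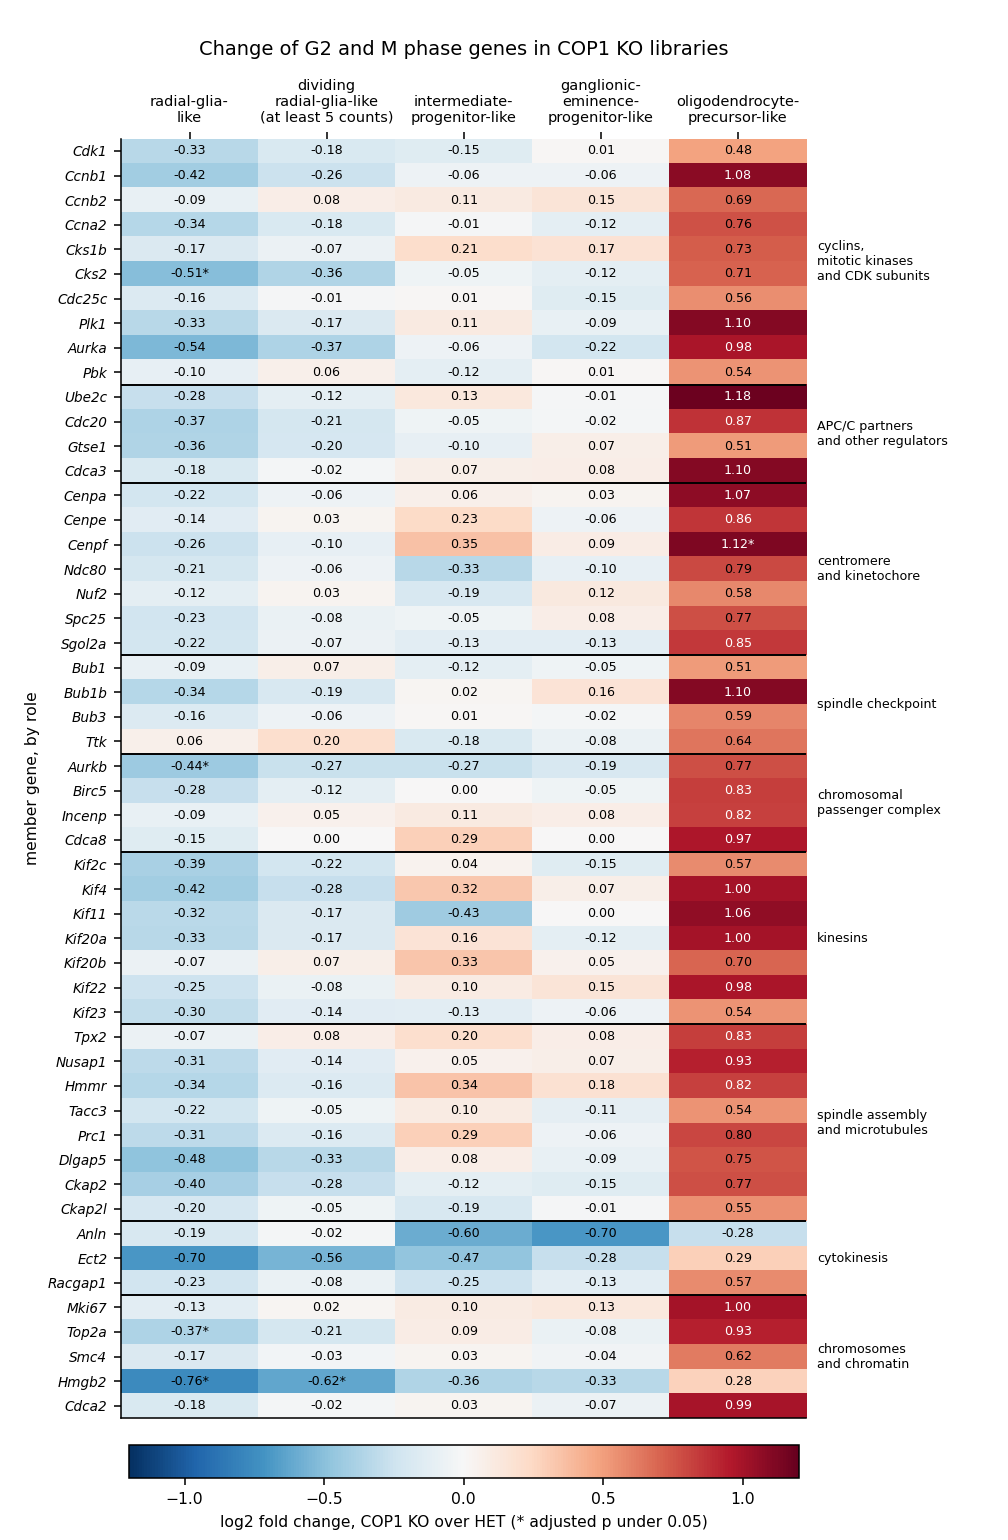
Log2 fold change of each member, COP1 KO over HET, in the sums of 4 progenitor classes and of dividing radial-glia-like cells, with members grouped by role; asterisks mark an edgeR adjusted p below 0.05. Radial-glia-like cells are lower in 51 of 52 rows and oligodendrocyte-precursor-like cells are higher in 51 of 52 rows, while the 2 other classes are mixed.

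Other cell cycle lists were read beside the members in radial-glia-like cells. Of 54 other G2 and M phase genes 51 were lower, with a median log2 change of -0.26, and 1 fell, Ccnf, the cyclin F gene (34.3 and 36.7 CPM in COP1 KO, 58.4 and 55 CPM in HET, log2 change -0.67, SE 0.152, edgeR adjusted p = 0.0499). Of 17 genes for the transcription of G2 and M genes 16 were lower, with a median of -0.23 and none called. Of 50 S phase genes 31 were lower, with a median of -0.06 and none called. Subunits and inhibitors of the APC/C (13 of 18 lower, median -0.11) and subunits of condensin and cohesin (13 of 15 lower, median -0.10) had no called member either. Markers of other cells also moved in these sums: of 10 oligodendrocyte precursor markers 3 were tested and 2 rose, their sum was 352 and 333 CPM in COP1 KO and 177 and 221 CPM in HET, and Gpr17 was at 0. Of 12 intermediate progenitor markers 2 fell, and their sum was 1434 and 1233 CPM in COP1 KO and 1570 and 1653 CPM in HET. Of the 17 radial glia markers themselves, 3 rose and 5 fell, where 245 of 11623 genes were called higher and 102 lower. The class joins a cluster of 1181 cells and a smaller one, which held 39 and 38 cells in COP1 KO and 20 and 19 in HET. The part of these markers and clusters in the members' result was not tested. The members' summed counts were 1.61 and 2.01 times those of the S phase list in COP1 KO and 2.10 and 2.13 times in HET.

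Fewer radial-glia-like cells were called dividing in COP1 KO, by a margin that 4 libraries cannot test. With every cell thinned to 3000 counts and shallower cells left out, and 2 or more counts over the other G2 and M phase genes as the call, 61.9% (219 of 354 cells, exact binomial 95% interval 56.6 to 66.9) and 65.6% (212 of 323, 60.2 to 70.8) of COP1 KO cells were dividing, against 71.4% (185 of 259, 65.5 to 76.8) and 69.4% (204 of 294, 63.8 to 74.6) of HET cells. The exact two-sided permutation p over libraries was 0.333, the smallest that 2 libraries against 2 allow. Without thinning the means were 72.7% in COP1 KO and 78.9% in HET. This call also took in 8.12% of excitatory-neuron-like cells in COP1 KO and 9.94% in HET as means, at median depths, before thinning, of 5540 and 6315 counts in COP1 KO and 6299 and 6545 in HET, against 5593 and 6032 in COP1 KO and 6600 and 6888 in HET for the radial-glia-like cells. By contrast, a call of 5 or more counts took in 0% of those neurons in COP1 KO (0 of 2054 and 0 of 1899, exact upper limits 0.179% and 0.194%) and 0.0261% in HET. The intervals cover counting error only. With that stricter call 46.9% and 47.7% of COP1 KO radial-glia-like cells and 55.6% and 50.7% of HET cells were dividing.

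Within dividing radial-glia-like cells the members' median lay closer to HET, and Hmgb2 alone stayed past the threshold. Hmgb2 moved toward HET as well, from a log2 change of -0.76 in all cells of the class to -0.67 with the call of 2 counts. With the call of 2 counts, 47 of 52 were lower, with a median of -0.17, and 1 fell, where 0.882% of 11227 genes were called lower. With the call of 5 counts, 41 of 52 were lower, with a median of -0.09, and again 1 fell, where 0.947% of 10664 genes were called lower. Both COP1 KO libraries lay below both HET libraries in 24 members, against 21.2% of all genes. The member that fell was Hmgb2 in both, with 481 and 478 CPM in COP1 KO and 735 and 735 CPM in HET among cells with at least 5 counts (log2 change -0.62, SE 0.0843, edgeR adjusted p = 0.00106). With the call of 2 counts and 1 library left out, the members' median ran from -0.25 to -0.1 and Hmgb2 from -0.7 to -0.65. In the cells with at least 5 counts Cks2 was lower by -0.36, Aurkb by -0.27 and Top2a by -0.21, and none of these passed.

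Hmgb2 also had lower values in COP1 KO in some other cells, none of them called. In radial-glia-like cells with fewer than 2 counts of the other G2 and M phase genes it had 40.0 and 50.2 CPM in COP1 KO, from 18 and 22 counts, and 77.9 and 100 CPM in HET, from 22 and 30 counts. In excitatory-neuron-like cells it had 6.76 and 7.30 CPM in COP1 KO, against 8.52 and 9.02 CPM in HET. Both are values with no test, and the groups did not overlap in either. In intermediate-progenitor-like cells Hmgb2 had 272 and 237 CPM in COP1 KO and 358 and 296 CPM in HET, which did not pass (log2 change -0.36, adjusted p = 0.278). In ganglionic-eminence-progenitor-like cells it had 648 and 643 CPM in COP1 KO and 772 and 848 CPM in HET, which did not pass either (log2 change -0.33, adjusted p = 0.358). The fall in radial-glia-like cells was larger than in either by edgeR's class-by-genotype term, with log2 differences of -0.41 (adjusted p = 0.037) and -0.44 (adjusted p = 0.0147). The first was lost without COP1 KO replicate 1 (-0.27) and without HET replicate 2 (-0.29). The second rests on HET replicate 1 and COP1 KO replicate 2, since it was lost without either one. Its value ran from -0.53 to -0.36 with 1 library left out. In oligodendrocyte-precursor-like cells the direction differed, with 296 and 290 CPM in COP1 KO and 210 and 269 CPM in HET (log2 change 0.28, adjusted p = 0.631).

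**Figure D4:**
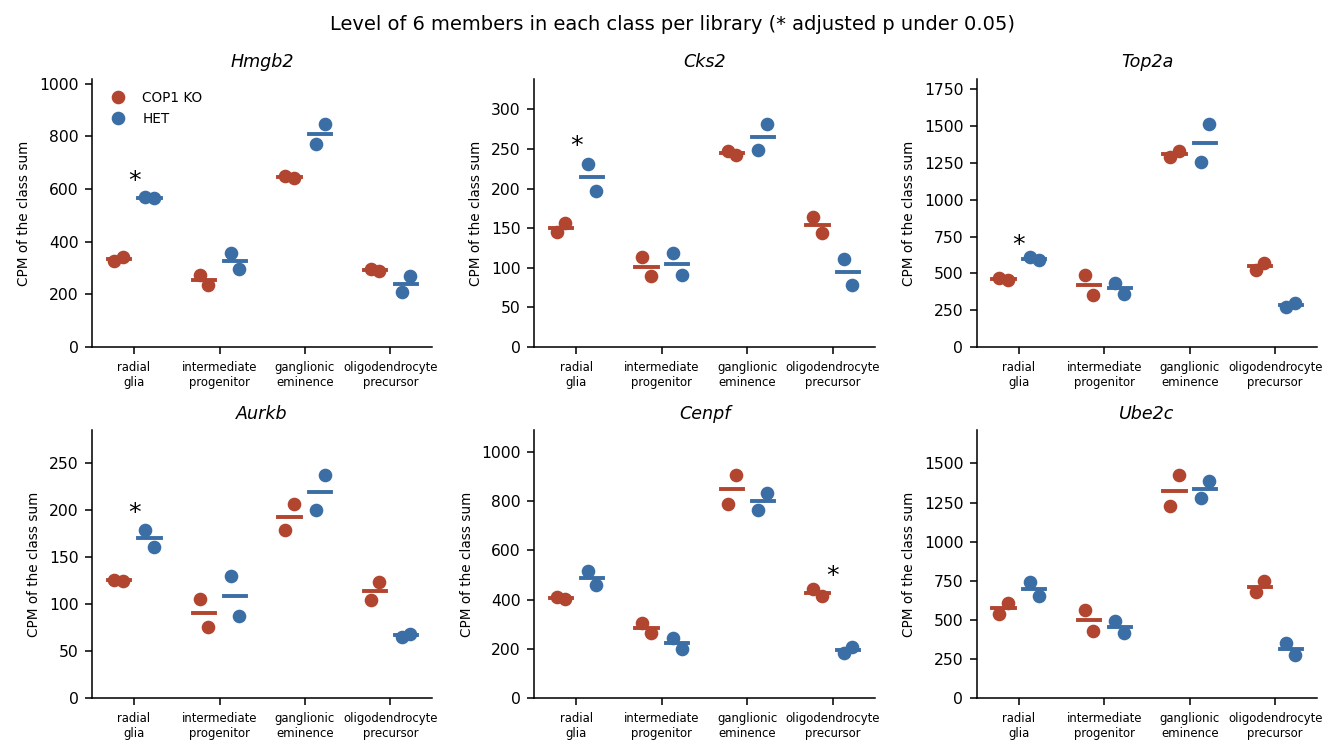
CPM of 6 members in the sums of 4 classes, with a point per library, a line for the mean, and an asterisk where the edgeR adjusted p was below 0.05. Hmgb2 in radial-glia-like cells had 328 and 340 CPM in COP1 KO and 569 and 564 CPM in HET, and Cenpf in oligodendrocyte-precursor-like cells had 442 and 415 CPM in COP1 KO and 183 and 209 CPM in HET.

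Intermediate and ganglionic eminence progenitors gave no member past the threshold. In intermediate-progenitor-like cells 23 of 52 members were lower, with a median log2 change of 0.02, and 0 were called, against 0.522% of 10531 genes called in either direction. This median has no settled sign: leaving out HET replicate 1 gave 0.20 and leaving out COP1 KO replicate 2 gave 0.13, but leaving out HET replicate 2 gave -0.18 and leaving out COP1 KO replicate 1 gave -0.15. At an unadjusted p below 0.05 there were 6 of 52 members, near the 10.9% of all genes tested, and DESeq2 called 0. In the dividing cells of this class 31 were lower and 0 were called, against 0.351% of all genes (0.405% with at least 5 counts). There 7 of 52 members had an unadjusted p below 0.05, against 10.6% of all genes, and DESeq2 called 0. With 1 library left out some members were called, in all cells of the class and in its dividing cells. The median of the dividing cells then ran from -0.2 to 0.1. The share of dividing cells was 43.6% and 35.2% in COP1 KO and 35.6% and 29.3% in HET, where the groups overlapped (exact permutation p = 0.667). Without thinning it was 40.8% and 41.2% in COP1 KO and 43.4% and 35.9% in HET, so the difference of the means fell to 1.36 percentage points, against 6.89 with thinning. In ganglionic-eminence-progenitor-like cells 31 of 52 members were lower, with a median of -0.04, and 0 were called, against 0.142% of 9143 genes. There 2 of 52 members had an unadjusted p below 0.05, against 7.47% of all genes, and DESeq2 called 0. The dividing cells of this class gave 35 lower and 0 called, against 0.113% of all genes (0.14% with at least 5 counts). Of the 52 members 3 had an unadjusted p below 0.05, against 7.56% of all genes, and DESeq2 called 0. With 1 library left out the median ran from -0.12 to -0.02 in the dividing cells and from -0.09 to 0.03 in all cells of the class. Of these cells 92.5% and 93.2% were dividing in COP1 KO, against 85.6% and 89.5% in HET (exact permutation p = 0.333). The groups overlapped with the call of 5 counts, at 82.9% and 84.4% in COP1 KO and 78.4% and 83.4% in HET (exact permutation p = 0.667). With clusters made with the cell cycle genes, the call of 2 counts gave means of 82.7% in COP1 KO and 74.5% in HET (exact permutation p = 0.667). Without thinning those clusters gave 64.9% in COP1 KO and 64.1% in HET, and the main clusters 89.3% and 86%.

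The change of some members differed between radial glia and intermediate progenitors. In the class-by-genotype term of edgeR, 45 of 52 members had a lower change in radial-glia-like than in intermediate-progenitor-like cells, with a median difference of -0.29 on the log2 scale, and 6 passed, where 0.39% of 11781 genes were called lower. The 6 were Cenpf (-0.62, adjusted p = 0.000253), Prc1 (-0.60, adjusted p = 0.00819), Top2a (-0.46, adjusted p = 0.0083), Ube2c (-0.41, adjusted p = 0.0269), Hmmr (-0.69, adjusted p = 0.0282) and Hmgb2 (-0.41, adjusted p = 0.037). PRC1 bundles the microtubules of the spindle midzone, and HMMR binds spindle microtubules near the poles. Prc1 had 272 and 332 CPM in COP1 KO and 400 and 349 CPM in HET radial-glia-like cells. In intermediate-progenitor-like cells it had 226 and 175 CPM in COP1 KO and 167 and 163 CPM in HET. With each library left out in turn, Cenpf alone kept its call throughout, and its difference ran from -0.70 to -0.52. The others moved more, with Ube2c at -0.10, Prc1 at -0.26, Top2a at -0.22, Hmmr at -0.48 and Hmgb2 at -0.27 without COP1 KO replicate 1. Radial glia markers moved in the intermediate-progenitor-like sums as well: of 17 markers 16 were tested, 4 rose and 1 fell, none was at 0, and they summed to 4223 and 3726 CPM in COP1 KO and 3145 and 3203 CPM in HET. Their part in the difference was not tested. Against ganglionic-eminence-progenitor-like cells, 50 of 52 had a lower change in radial-glia-like cells, with a median difference of -0.24, and Hmgb2 alone passed, where 0.186% of 11308 genes were called lower. In that class radial glia markers (15 of 17 tested, 1 rose, none at 0) summed to 5963 and 4951 CPM in COP1 KO and 4187 and 4087 CPM in HET, and their part was not tested.

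In oligodendrocyte-precursor-like cells the members were higher in COP1 KO. Of 52 members 51 were higher, with a median log2 change of 0.78, or 1.72-fold, while over all 8227 genes the median was -0.01 and 48.9% were higher. In 50 of 52 members both COP1 KO libraries lay above both HET libraries, which was so for 21.1% of all genes. The members summed to 10152 and 10577 CPM in COP1 KO, against 5286 and 6254 CPM in HET. The lowest count of a member in a library was 4, and 1 member rose past the threshold, where 0.0243% of all genes were called higher. At an unadjusted p below 0.05 there were 38 of 52 members, against 9.97% of all genes tested, and DESeq2 called 1, which was Ube2c.

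The member that rose was Cenpf. It had 442 and 415 CPM in COP1 KO oligodendrocyte-precursor-like cells, against 183 and 209 CPM in HET (log2 change 1.12, SE 0.177, edgeR adjusted p = 0.0483). The groups were far apart, but the call lay at the threshold. It was lost in 7 of 10 alternative analyses, among them DESeq2 (adjusted p = 0.0773) and those that left out HET replicate 1 or either COP1 KO library. With 1 library left out the log2 change of Cenpf ran from 1.04 to 1.27. Ube2c had 676 and 749 CPM in COP1 KO and 355 and 278 CPM in HET, and just missed in edgeR (log2 change 1.18, adjusted p = 0.0542), while DESeq2 gave an adjusted p of 0.0167. Ccnb1 had 343 and 379 CPM in COP1 KO and 153 and 187 CPM in HET, and did not pass (log2 change 1.08, adjusted p = 0.0806). Anln, the actin-binding protein of the cleavage furrow, was the exception in direction, with 11.5 and 26.7 CPM in COP1 KO and 19.1 and 28.1 CPM in HET.

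More oligodendrocyte-precursor-like cells were called dividing in COP1 KO. With the call of 2 counts in thinned cells, 70.1% (75 of 107 cells, exact binomial 95% interval 60.5 to 78.6) and 68.4% (91 of 133, 59.8 to 76.2) were dividing in COP1 KO, against 43.3% (13 of 30, 25.5 to 62.6) and 52.8% (19 of 36, 35.5 to 69.6) in HET. With the call of 5 counts it was 50.5% and 45.9% in COP1 KO, against 23.3% and 41.7% in HET. Without thinning the means of the call of 2 counts were 81.7% in COP1 KO and 64.2% in HET. The groups did not overlap with either thinned call, and the exact permutation p of 0.333 is the smallest possible. Among the dividing cells 51 of 52 members were still higher, with a median of 0.57, but 0 were called, and 0 of 7668 genes were (0%). At an unadjusted p below 0.05 there were 25 of 52 members, against 7.46% of all genes tested, and DESeq2 called 0. With 1 library left out the members' median in these dividing cells ran from 0.53 to 0.65.

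The higher level was seen within this class both in cells with and in cells without markers of committed precursors. In cells with a Pdgfra or Sox10 count, the members summed to 9737 and 12033 CPM in COP1 KO, against 5271 and 5484 CPM in HET. In cells without one, they summed to 10448 and 8910 CPM in COP1 KO, against 5299 and 6971 CPM in HET. The HET values rest on 15 to 23 cells each. Cells with such a count were 42.2% and 51.8% of the class in COP1 KO and 51.4% and 60.5% in HET. Of 9 fibroblast markers, a list that includes Pdgfra and so also counts a marker of committed precursors, 3 were tested and none was called, with Foxc1 at 0. They summed to 120 and 193 CPM in COP1 KO and to 469 and 365 CPM in HET in this class, and their part in the result was not tested.

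The S phase list was higher there as well, in 42 of 45 genes tested with a median of 0.43 and none called. The other G2 and M phase genes were higher in 41 of 44, with a median of 0.62 and none called. Genes for the transcription of G2 and M genes were higher in 10 of 14 (median 0.22) and subunits of condensin and cohesin in 13 of 15 (median 0.40), with none called in either.

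The change in oligodendrocyte-precursor-like cells differed from that in radial-glia-like cells. This term was added after the data were seen. Of 52 members 51 had a higher change in oligodendrocyte-precursor-like cells, with a median difference of 1.13 on the log2 scale, and 13 passed edgeR's class-by-genotype test, where 0.145% of 11741 genes were called higher. Ube2c had the lowest adjusted p of the members (difference 1.51, SE 0.175, adjusted p = 0.00769), and Aurka the largest difference among the 13 (1.57, SE 0.256, adjusted p = 0.0224). The calls rest on both COP1 KO libraries, since they were lost without either one. With 1 library left out the difference ran from 1.48 to 1.59 for Ube2c and from 1.52 to 1.61 for Aurka.

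Ect2, which encodes the activator of RhoA that sets the cleavage furrow, differed between the COP1 KO libraries more than between genotypes. It had 13.1 CPM in COP1 KO replicate 1 and 27.1 CPM in COP1 KO replicate 2 as whole libraries, against 21.6 and 27.2 CPM in HET. In radial-glia-like cells it had 49.4 and 112 CPM in COP1 KO, against 128 and 135 CPM in HET. In ganglionic-eminence-progenitor-like cells it had 105 and 250 CPM in COP1 KO, against 186 and 244 CPM in HET. COP1 KO replicate 1 was the lowest library in all 4 classes, at 0.395 to 0.711 times the mean of the others, and Ect2 passed in none of them. Anln was lower in COP1 KO ganglionic-eminence-progenitor-like cells, with 35.6 and 45.0 CPM against 70.2 and 62.4 CPM in HET, and did not pass (log2 change -0.70, adjusted p = 0.405). With Racgap1, whose product binds ECT2 at the spindle midzone, these form the cytokinesis role. Its 3 members had lower values in whole libraries, with log2 changes of -0.27 to -0.01 and none called, while every other role had a median above 0. COP1 KO replicate 1 was low there for Ect2 and Anln, at 0.517 and 0.706 times the mean of the others, so the role's pattern leans on that library.

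**Figure D5:**
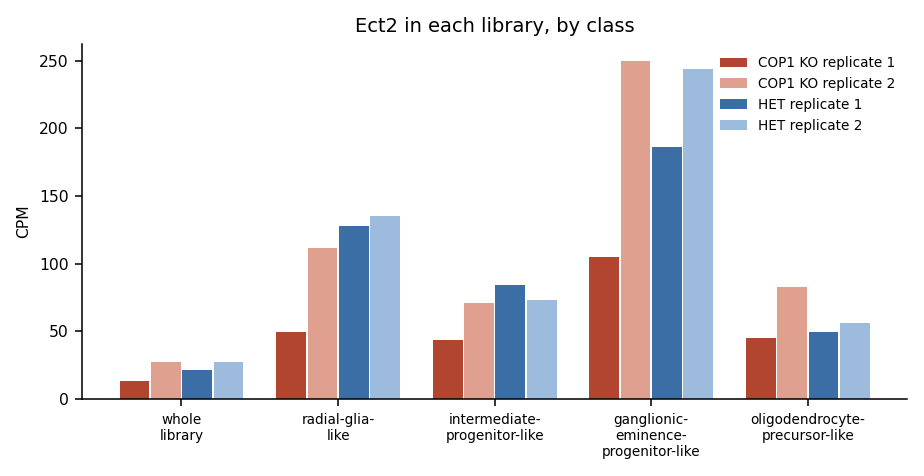
Ect2 in CPM in each library, for the whole library and for 4 progenitor classes. COP1 KO replicate 1 is lowest in every group of bars, at 13.1 CPM in the whole library against 27.1 CPM in COP1 KO replicate 2 and 21.6 and 27.2 CPM in HET.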

How the data were processed

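Single cells from papain-dissociated cortex were measured with the 10x 3′ v2 kit, per the labels' protocols, and GSNAP and GRCm38 (mm10) are named in the submitters' processing notes. The authors deposited raw counts, whole numbers for every gene in each cell. What counted the reads, and on which annotation, is not given in the sources used here. Rows named only by a number (3065 of 36528, 1.69% of counts) were kept, and were tested where they passed the filter on low counts. The 51 rows that duplicated another (in 44 groups, 1.33% of counts, none a member) were removed.

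Of 19237 barcodes, 222 with under 500 genes and 1 with over 10% mitochondrial counts were dropped. The doublet caller Scrublet marked 12 cells (0.063%) by its own threshold, which is too few for it to have worked, so the 231 cells (1.21%) with a score above 0.25 were removed, and doublets may remain among the 18783 kept cells. Cells were clustered with scanpy 1.11.5 and leidenalg 0.10.2 (2000 variable genes, 30 components, 15 neighbors, resolution 1) after 268 cell cycle genes were taken out, and clusters were named from marker lists.

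Counts were summed per library and class and tested with edgeR 4.0.16 in R 4.3.3 (TMM, filterByExpr, quasi-likelihood F-test, Benjamini-Hochberg adjustment over all genes, threshold 0.05). Reads of genes with near-identical copies could have been split or dropped by the authors' counting, which was not checked for the members. All 52 members passed the filter on low counts in each class. The SE is the log2 change divided by the square root of F. CPM of single genes are TMM-scaled, and summed CPM are per class total. Class-by-genotype terms were fitted on the sums of both classes together, which come from the same libraries. Alternatives were other size factors, library totals, no filter, DESeq2 1.42.0, clusters made with the cell cycle genes, cells with at least 1000 genes, other dividing calls, and each library left out. Counts were also simulated from the means of the radial-glia-like sums (11409 genes), with the same preset dispersion for every gene, not one estimated from these libraries. Of genes changed by 1 on the log2 scale 56.6% were recovered, and of those changed by 2 94.9%, with 9 false calls. Changes as small as the members' median there, -0.26, were not simulated, and the false calls hold for the preset dispersion only.

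The members and lists were chosen with earlier results of these data known. Full statistics are given for members past the threshold and, in radial-glia-like cells, for 8 with textbook roles (Mki67, Top2a, Cdk1, Ccnb1, Hmgb2, Cks2, Cenpf and Ube2c). Other named members show the ends of a range or an exception in direction and were chosen after their values were seen, as were Aurka, Cdc20 and Prc1.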

Additional observations from a re-analysis of the deposited data

Results flagged for a closer look

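The results below were singled out because the change between COP1 KO and HET differed between 2 cell classes by edgeR's class-by-genotype term, with Benjamini-Hochberg adjustment over all genes. Each value is a difference of log2 changes, and the members named here in this way passed an adjusted p of 0.05.

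Between radial-glia-like and intermediate-progenitor-like cells, the change was lower in radial-glia-like cells for Cenpf by -0.62 (SE 0.104), Prc1 by -0.60 (SE 0.133), Top2a by -0.46 (SE 0.101), Ube2c by -0.41 (SE 0.104), Hmmr by -0.69 (SE 0.173) and Hmgb2 by -0.41 (SE 0.106). With 1 library left out these ran from -0.70 to -0.52 for Cenpf, -0.92 to -0.26 for Prc1, -0.66 to -0.22 for Top2a, -0.70 to -0.10 for Ube2c, -0.87 to -0.48 for Hmmr and -0.54 to -0.27 for Hmgb2, with the value nearest 0 without COP1 KO replicate 1 in each. Between radial-glia-like and ganglionic-eminence-progenitor-like cells it was lower for Hmgb2 by -0.44 (SE 0.0925), from -0.53 to -0.36 with 1 library left out.

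Between oligodendrocyte-precursor-like and radial-glia-like cells the change was higher in the oligodendrocyte-precursor-like cells. Among genes of mitotic entry and exit the difference was 1.51 for Ube2c, 1.56 for Ccnb1, 1.57 for Aurka, 1.29 for Cdc20, 1.34 for Cdca3 and 1.15 for Ccna2, the cyclin A2 gene. Among genes of chromosomes, centromeres and spindle it was 1.43 for Cenpf, 1.35 for Top2a, 1.34 for Cenpa, 1.29 for Nusap1, 1.19 for Cdca8, 1.15 for Prc1 and 1.10 for Hmgb2. Their adjusted p ran from 0.00769 for Ube2c to 0.0482 for Ccna2.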

How the results depend on the processing

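No single-gene value listed changed sign under the alternatives run, but medians near 0 did with 1 library left out: the members' median log2 change ran from -0.18 to 0.20 in intermediate-progenitor-like cells (-0.02 with library totals, -0.01 with no filter), -0.20 to 0.10 in dividing intermediate-progenitor-like and -0.09 to 0.03 in ganglionic-eminence-progenitor-like cells. With no filter on low counts, the called members numbered 14 in radial-glia-like cells, 5 in dividing radial-glia-like cells, 1 in intermediate-progenitor-like cells and 1 in their dividing cells, 22 in oligodendrocyte-precursor-like cells, 8 in their dividing cells, 5 for the difference between radial-glia-like and ganglionic-eminence-progenitor-like cells, and 38 for that between oligodendrocyte-precursor-like and radial-glia-like cells, and the cause was not tested. The share of all genes called with no filter is not given here, so those counts have nothing to be set against. DESeq2 called 1 member in radial-glia-like cells, and relative-log-expression size factors left 0 in oligodendrocyte-precursor-like cells. In dividing radial-glia-like cells 2 members were called with library totals and 2 with clusters made with cell cycle genes, which left 0 for the difference between radial-glia-like and ganglionic-eminence-progenitor-like cells. With 1 library left out, called members ranged from 0 to 1 in whole libraries, 1 to 24 in radial-glia-like, 1 to 11 in dividing radial-glia-like, 0 to 7 in intermediate-progenitor-like, 0 to 5 in dividing intermediate-progenitor-like, 0 to 1 in ganglionic-eminence-progenitor-like cells and in their dividing cells, 0 to 9 in oligodendrocyte-precursor-like and 0 to 11 in dividing oligodendrocyte-precursor-like cells. Differences between classes ranged from 1 to 18 (intermediate-progenitor-like), 0 to 10 (ganglionic-eminence-progenitor-like) and 0 to 35 (oligodendrocyte-precursor-like), each against radial-glia-like cells. The difference in the share of dividing cells, COP1 KO minus HET, ranged from -8.54 to -4.77 percentage points in radial-glia-like, 2.69 to 11.08 in intermediate-progenitor-like, 3.37 to 7.27 in ganglionic-eminence-progenitor-like and 16.48 to 25.92 in oligodendrocyte-precursor-like cells. In these fits the lone library of a genotype is assumed to vary like the others. Of the values for single genes and medians, 289 kept their side of the threshold or moved little, 60 lost it, 6 gained it and 6 moved. The fits of dividing oligodendrocyte-precursor-like cells with at least 3 or 5 counts were not run, since a HET library held under 20 such cells. No paired analysis was possible because the labels give no replicate numbers that the groups share. Depth limits the oligodendrocyte-precursor-like sums most, where a member had as few as 4 counts in a library.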
